A study of Homo sapiens with 60 samples.

Results

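The genes described here are 38 genes of the unfolded protein response and of the folding machinery of the endoplasmic reticulum (ER), taken by symbol from a count table of 60675 genes. All 38 were found, and all 38 were among the 16767 genes with enough reads to be tested. By role they are 10 lumenal chaperones and cochaperones, 2 lectin chaperones, 5 disulfide isomerases and oxidases, 9 genes of ER-associated degradation (ERAD), 6 genes of translocation and export, and 6 stress sensors, transcription factors and WFS1.

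They were measured in HT29, an established human colorectal adenocarcinoma line, treated for 24 h. The 21 groups comprised vehicle (DMSO), the phosphoinositide 3-kinase (PI3K) inhibitors wortmannin and LY294002, each at 10 µM, and 6 herbal extracts at 500, 100 and 20 µg/mL. The extracts, all water extracts per the labels, are called by the first word of their names except for ginseng. They were Paeoniae Radix, Angelicae Gigantis Radix, Panax Ginseng (called Ginseng), the licorice root Glycyrrhizae Radix, Atractylodis Rhizoma and Poria Cocos. Each group had 3 libraries, apart from 2 libraries at each dose of Paeoniae, which makes 60. The labels put the vehicle at 0.1% DMSO, while the text on the series has 2% DMSO. The sample records used here give no DMSO percentage for the other groups. In comparisons with vehicle, a difference in solvent and a treatment therefore cannot be told apart. HT29 is 1 cell line, with no normal colon beside it.

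Proteins that enter the secretory pathway fold in the ER with the help of the Hsp70 protein BiP (HSPA5), its cochaperones, the lectins calnexin and calreticulin, and enzymes that form disulfide bonds. When unfolded protein accumulates, the sensors IRE1 (ERN1), ATF6 and PERK (EIF2AK3) raise transcription of these genes through XBP1, cleaved ATF6 and ATF4, and damaged protein is sent out of the ER for degradation. In a secretory epithelium of the gut, this machinery serves the production of mucins and other secreted proteins.

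ATF6 and XBP1 are known to act through short promoter elements. They are printed here because several of the members that changed in the comparisons below carry them. RefSeq promoters of build GRCh38.p14, 250 bases before to 50 bases after each annotated start, were at hand for 34 members (44 promoters) and were searched on both strands. The letters searched were CCAAT and CCACG with any 9 bases between them for the ER stress response element (ERSE), ATTGG and CCACG with any 1 base between them for ERSE-II, and TGACGTGG for the unfolded protein response element (UPRE). ERSE was found in 27 of 35116 promoters in the genome (0.0769%) and in 10 of the 44 member promoters, those of 8 genes. ERSE-II was found in 19 promoters in the genome (0.0541%) and in 3 members. The shorter UPRE was found in 256 promoters (0.729%) and in 3 members, and 1 of these matches overlaps an ERSE-II. ERSE or ERSE-II together were in 11 of 34 member genes (32.4%) and in 44 of 27305 genes overall (0.161%). A match is a description of the letters and not evidence of binding.

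The promoter of HSPA5, which encodes BiP, is shown for the 160 bases before the start, on the minus strand (chr9:125241344-125241503), outside the annotated span of the gene. The exact match to the ERSE letters is in capitals, and near matches were not searched.
HSPA5: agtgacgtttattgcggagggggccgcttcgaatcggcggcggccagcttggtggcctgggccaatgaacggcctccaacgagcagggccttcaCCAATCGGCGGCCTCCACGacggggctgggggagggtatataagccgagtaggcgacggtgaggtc

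The matches in other members follow with 5 flanking bases in lower case on the strand of the gene. A match that begins with CGTGG, or a UPRE that reads CCACGTCA, is the reverse complement of the letters searched.
HSP90B1, ERSE (chr12:103930211-103930239): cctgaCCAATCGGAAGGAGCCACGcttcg
HSP90B1, ERSE (chr12:103930316-103930344): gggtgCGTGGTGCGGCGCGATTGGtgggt
CALR, ERSE (chr19:12938379-12938407): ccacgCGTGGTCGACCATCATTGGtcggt
PDIA6, ERSE (chr2:10812848-10812876, minus strand): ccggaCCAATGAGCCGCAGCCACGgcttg
CRELD2, ERSE (chr22:49918549-49918577): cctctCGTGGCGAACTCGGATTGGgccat
XBP1, ERSE (chr22:28800598-28800626, minus strand): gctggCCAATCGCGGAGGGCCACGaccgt
HYOU1, ERSE-II (chr11:119057375-119057395, minus strand): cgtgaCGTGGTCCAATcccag
HYOU1, ERSE-II (chr11:119057269-119057289, minus strand): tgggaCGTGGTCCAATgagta
HERPUD1, ERSE-II (chr16:56932020-56932040): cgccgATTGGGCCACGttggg
SDF2L1, ERSE-II (chr22:21642109-21642129): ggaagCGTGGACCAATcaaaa
DNAJC10, UPRE (chr2:182716127-182716144): caccgCCACGTCAaccta
SSR3, UPRE (chr3:156554154-156554171, minus strand): aacagCCACGTCAgcaag
The sites of HSP90B1, PDIA6, CRELD2, DNAJC10 and SSR3 lie inside the annotated span of their gene, since other transcripts start further upstream. Those of CALR, XBP1, HYOU1, HERPUD1 and SDF2L1 lie before it. ERO1B and CANX also carry an ERSE. No promoter entry was at hand for PDIA3, DERL1, SEC24D or DERL3.

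**Figure D1:**
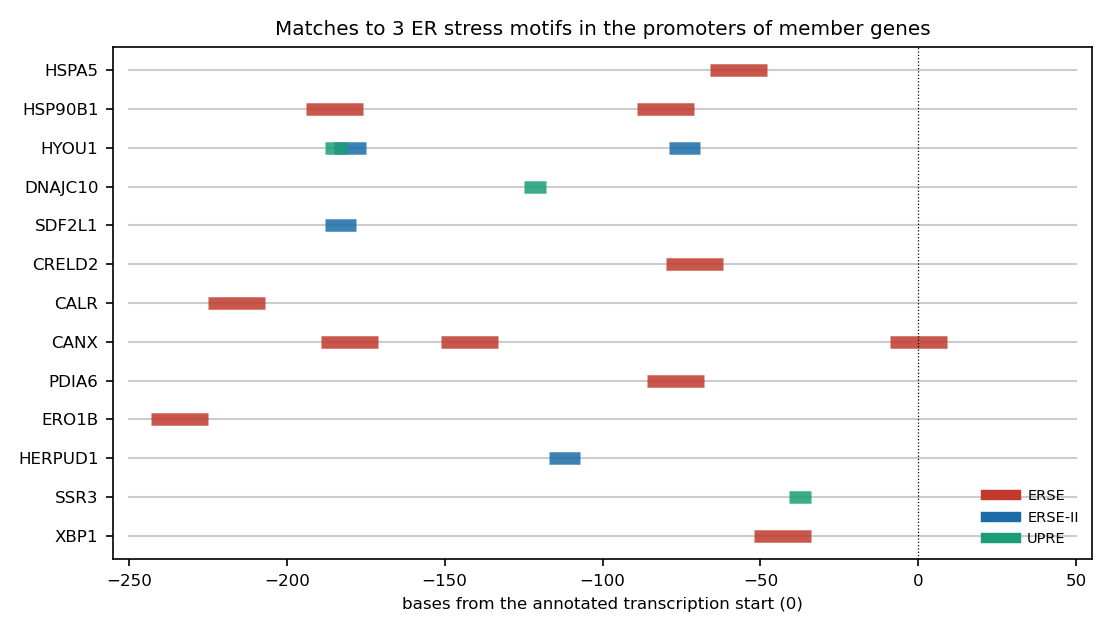
Distance in bases from the annotated start to each ERSE, ERSE-II and UPRE match, 1 row per member gene and 1 symbol per match. CANX has 3 annotated starts, so its single site appears 3 times, and the HSPA5 site lies 48 to 66 bases before the start.

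Deposited counts summed to 20431980 to 35477712 per library, of which 6.97% to 11.4% fell on mitochondrial genes. Of 9 colon epithelial markers, 8 had a mean of at least 1 CPM (reads of a gene relative to those of its library, with TMM correction for composition), and CDX1 was at 0.864 CPM. Of 20 markers of fibroblasts, leukocytes, endothelium and plasma cells, 4 reached 1 CPM: COL1A1, ITGAM, PECAM1 and the epithelial proteoglycan SDC1. JCHAIN and IGHG1, which mark plasma cells with their large ER, were near 0. The first number of the sample code sorts the groups into 4 sets: vehicle with both inhibitors, Atractylodis with Poria, Ginseng with Glycyrrhizae, and Paeoniae with Angelicae. What this number marks is not stated, so an extract and a code set cannot be told apart in a comparison with vehicle, whereas 500 against 20 µg/mL stays within 1 set. The vehicle codes alone carry a letter A before the number. Its meaning is not stated, and comparisons of the inhibitors with vehicle also cross it. All titles name BatchA. All comparisons with vehicle share the same 3 vehicle libraries. Nothing in the labels tells whether the replicates came from separate cultures, so the p-values measure the spread between these libraries, which may be technical. In bulk RNA, fewer cells and less RNA per cell cannot be told apart.

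Levels were first compared per length, as CPM per kilobase of merged exons in vehicle. Calreticulin (CALR) stood highest at 228, followed by the disulfide isomerase PDIA3 at 180.1, the ER Hsp90 paralog HSP90B1 at 153, calnexin (CANX) at 139, P4HB at 137, PDIA4 at 122 and HSPA5 at 109. The translocation channel subunit SEC61A1 was at 85.5 and XBP1 at 70.6. Among the low members, the derlin DERL2, of the ERAD machinery, was at 2.92, the oxidase ERO1B at 0.116 and DERL3 at 0.109. The latter pair was represented by about 0.5 CPM in most libraries, and changes in them carry wide errors. HSP90B1 and PDIA3 have processed pseudogenes, between which and the parent gene the authors' estimated counts could have split reads.

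The spread of the group means over the 21 groups differed between members. The ratio of the highest to the lowest group mean was 1.65 for HSP90B1, 1.53 for the cochaperone DNAJB11, 1.46 for the secreted stress protein MANF, 1.45 for HSPA5, 1.45 for CANX and 1.44 for CALR. In HSP90B1, HSPA5, HYOU1, DNAJB11, DNAJC3, MANF, CANX, PDIA3, PDIA4, PDIA6 and SSR3, LY294002 was the lowest group and Glycyrrhizae at 500 µg/mL the highest. SEC24D, a coat subunit of the vesicles that leave the ER, had the opposite order, from 39.2 CPM in Glycyrrhizae at 500 µg/mL to 58.9 CPM in LY294002. Among ERAD genes, ratios were 1.09 for DERL1, 1.12 for EDEM1, 1.15 for SEL1L and 1.19 for HERPUD1. The ratios of DERL3 (2.02) and ERO1B (1.76) rest on group means under 1 CPM.

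**Figure D2:**
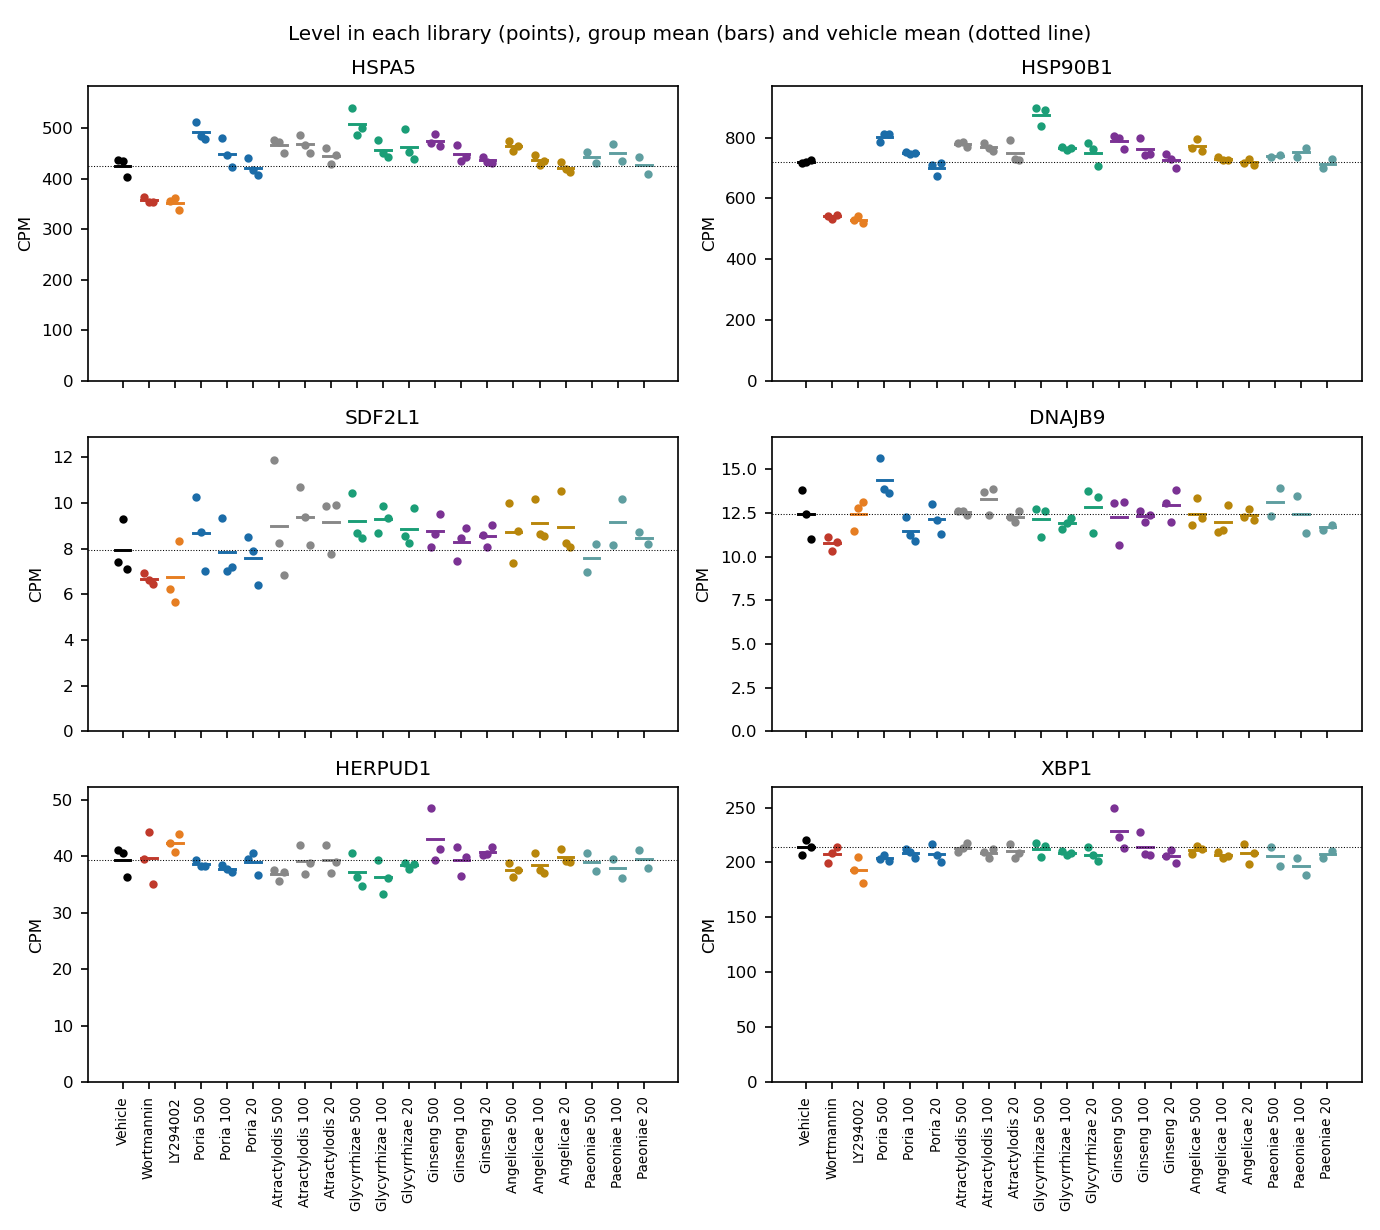
Level in CPM of HSPA5, HSP90B1, SDF2L1, DNAJB9, HERPUD1 and XBP1 in each library of the 21 groups, with a bar at the group mean. HSP90B1 lies between 517 and 545 CPM in the 6 inhibitor libraries and between 839 and 896 CPM in the 3 libraries of Glycyrrhizae at 500 µg/mL.

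Wortmannin was the first treatment compared with vehicle. Several folding genes fell, to between 0.751 and 0.878 times the vehicle level among those called, and no sensor passed the test. The SE of the log2 change differed between members, from 0.03 for CANX through 0.10 for ERN1 to 0.34 for DERL3. SDF2L1 changed by -0.25 with an SE of 0.16 and was not called, while HSPA5 was called at -0.25 with an SE of 0.05. Counts of calls by role thus depend on expression level as well as on the size of change. By edgeR's quasi-likelihood test with Benjamini-Hochberg adjustment over all genes tested, 10 of 38 members fell (26.3%) against 7.46% of all genes, and 1 rose (2.63%) against 6.26%. The median member change was -0.11 on the log2 scale, against 0 for all genes, and 32 of 38 members had a negative change. The balance over all genes depended on the scaling, with 1050 higher and 1250 lower here, 1282 and 909 with upper-quartile factors and 1401 and 743 with library totals, while 1 member was higher and 9 were lower with either.

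HSP90B1 stood at 715, 719.7 and 725 CPM in vehicle, 542, 533 and 545 CPM with wortmannin and 528, 543 and 517 CPM with LY294002. All 6 inhibitor libraries lay below all vehicle libraries, and the inhibitors overlapped each other. The change was -0.41 ± 0.04 (log2, SE) with wortmannin and -0.44 ± 0.04 with LY294002, with adjusted p of 2.06e-12 and 2.32e-14.

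HSPA5 stood at 437, 434 and 403 CPM in vehicle, 363, 354 and 355 CPM with wortmannin and 355, 362 and 338 CPM with LY294002. The lowest vehicle library was still above the highest inhibitor library. The changes were -0.25 ± 0.05 (adjusted p = 0.000139) and -0.27 ± 0.05 (adjusted p = 6.14e-06).

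The other lumenal genes called with wortmannin were HYOU1, a large Hsp70-like chaperone that exchanges the nucleotide of BiP, and DNAJB11, a BiP cochaperone. HYOU1 fell from 276, 281 and 289 CPM in vehicle to 233, 229.7 and 234 CPM, a change of -0.28 ± 0.04 (adjusted p = 7.24e-07). DNAJB11 fell from 84.8, 86.0 and 83.2 CPM to 70.8, 70.9 and 72.2 CPM, a change of -0.25 ± 0.05 (adjusted p = 0.000373). In all, 4 of 10 lumenal chaperones passed the test, all lower, with a median change of -0.23 over the 10.

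Both lectin chaperones, which hold glycoproteins during folding, fell. CALR fell from 621, 633 and 602 CPM in vehicle to 467, 481 and 515 CPM with wortmannin, a change of -0.34 ± 0.04 (adjusted p = 6.23e-09). CANX fell from 881, 866 and 859 CPM to 769.8, 744 and 765 CPM, a change of -0.19 ± 0.03 (adjusted p = 1.71e-06). The groups did not overlap for either gene.

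Of the 5 disulfide genes, PDIA4, PDIA3 and PDIA6 fell. PDIA4 moved from 407, 399.9 and 389.6 CPM to 326, 324 and 342 CPM (-0.27 ± 0.03, adjusted p = 5.98e-08). PDIA3, which works with calnexin and calreticulin, moved from 768, 781 and 742 CPM to 636, 640.2 and 651 CPM (-0.25 ± 0.03, adjusted p = 6.38e-07). PDIA6 fell by 0.19 (adjusted p = 5.54e-05).

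Outside the folding genes, wortmannin passed the test in EDEM3, an ERAD mannosidase (-0.14 ± 0.05, adjusted p = 0.0344), and in SEC24D, the single member that rose (0.28 ± 0.09, adjusted p = 0.034). SEC24D stood at 44.2, 48.1 and 46.9 CPM in vehicle and 54.8, 62.3 and 51.8 CPM with wortmannin. The SEC24D call was lost in 5 of 6 fits with 1 library left out: without any 1 vehicle library (0.25 to 0.31, adjusted p = 0.0532 to 0.128), without the first wortmannin library (0.30, adjusted p = 0.0577) and without the second (0.20, adjusted p = 0.228). The EDEM3 call was lost in 4 of 6, without the first or the second library of either group (-0.14 to -0.11, adjusted p = 0.0671 to 0.189).

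With LY294002, 20 of 38 members fell (52.6%) against 20.5% of all genes, and 3 rose (7.89%) against 18.7%. The median member change was -0.14, against 0.0070 for all genes. The calls covered 8 of 10 lumenal chaperones, both lectin chaperones and 4 of 5 disulfide genes, all lower. Over all genes 3129 were higher and 3436 lower, against 3860 and 2778 with upper-quartile factors and 3793 and 2745 with library totals. With upper-quartile factors 12 members fell and 4 rose, with library totals 14 fell and 4 rose, and in a fit to the LY294002 and vehicle libraries alone 12 fell and 2 rose. In that last fit 2344 of all 15148 genes fell and 2211 rose. XBP1, SSR3, EDEM3, SSR1, MANF, SYVN1, CRELD2 and P4HB were the calls lost with upper-quartile factors.

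DNAJB11 fell to 63.5, 62.1 and 63.1 CPM with LY294002 (-0.43 ± 0.05, adjusted p = 1.7e-09). HYOU1 fell to 225, 225 and 204 CPM (-0.37 ± 0.04, adjusted p = 9.28e-11), and CANX to 686, 682 and 673 CPM (-0.35 ± 0.03, adjusted p = 3.37e-14). These 3 genes had no library in common range with vehicle. PDIA4 fell by 0.34, CALR by 0.30, PDIA3 by 0.29 and PDIA6 by 0.27 on the log2 scale. Smaller called decreases were found for DNAJC3, an inhibitor of the kinase PERK that also acts as a BiP cochaperone (-0.26 ± 0.06, adjusted p = 0.000366), CRELD2 (-0.23), MANF (-0.21), the reductase DNAJC10 (-0.19) and P4HB (-0.10). With 1 library left out the calls of CRELD2 (4 of 6 fits), P4HB (2 of 6) and MANF (without the second vehicle library) were lost.

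ERAD genes split with LY294002. EDEM2, which starts mannose trimming, rose by 0.29 ± 0.09 (adjusted p = 0.00623), from 20.5, 20.0 and 20.2 CPM to 22.7, 22.6 and 28.9 CPM. Without the third LY294002 library the EDEM2 change was 0.16 with an adjusted p of 0.16. DERL3, a derlin of secretory cells, rose from 0.341, 0.452 and 0.442 CPM to 0.894, 0.819 and 0.788 CPM, a change of 1.01 ± 0.31 (adjusted p = 0.00825) that rests on few reads. SYVN1, the ubiquitin ligase at the core of ERAD, fell by 0.24 (adjusted p = 0.0199) with overlapping libraries, and by 0.13 (adjusted p = 0.26) without the third LY294002 library, and its call was also lost without the second or the third vehicle library (adjusted p = 0.0799 and 0.078). EDEM3 fell by 0.13, a call lost in 2 of 6 fits with 1 library left out, and the other 5 ERAD members were not called.

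Among translocation and export genes, SEC61A1 (-0.15), SSR1 (-0.13) and SSR3 (-0.11) fell and SEC24D rose, from the vehicle values above to 59.3, 67.2 and 50.4 CPM (0.35 ± 0.09, adjusted p = 0.0023). SSR1 and SSR3 belong to the translocon-associated protein complex, and each lost its call in 2 of 6 fits with 1 library left out. Other subunits of this complex and of the channel did not fall. SSR2 and SEC61B were not called. SSR4 (0.27, adjusted p = 0.0258) and SEC61G (0.39, adjusted p = 0.00724), both from the other lists below, rose.

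**Figure D3:**
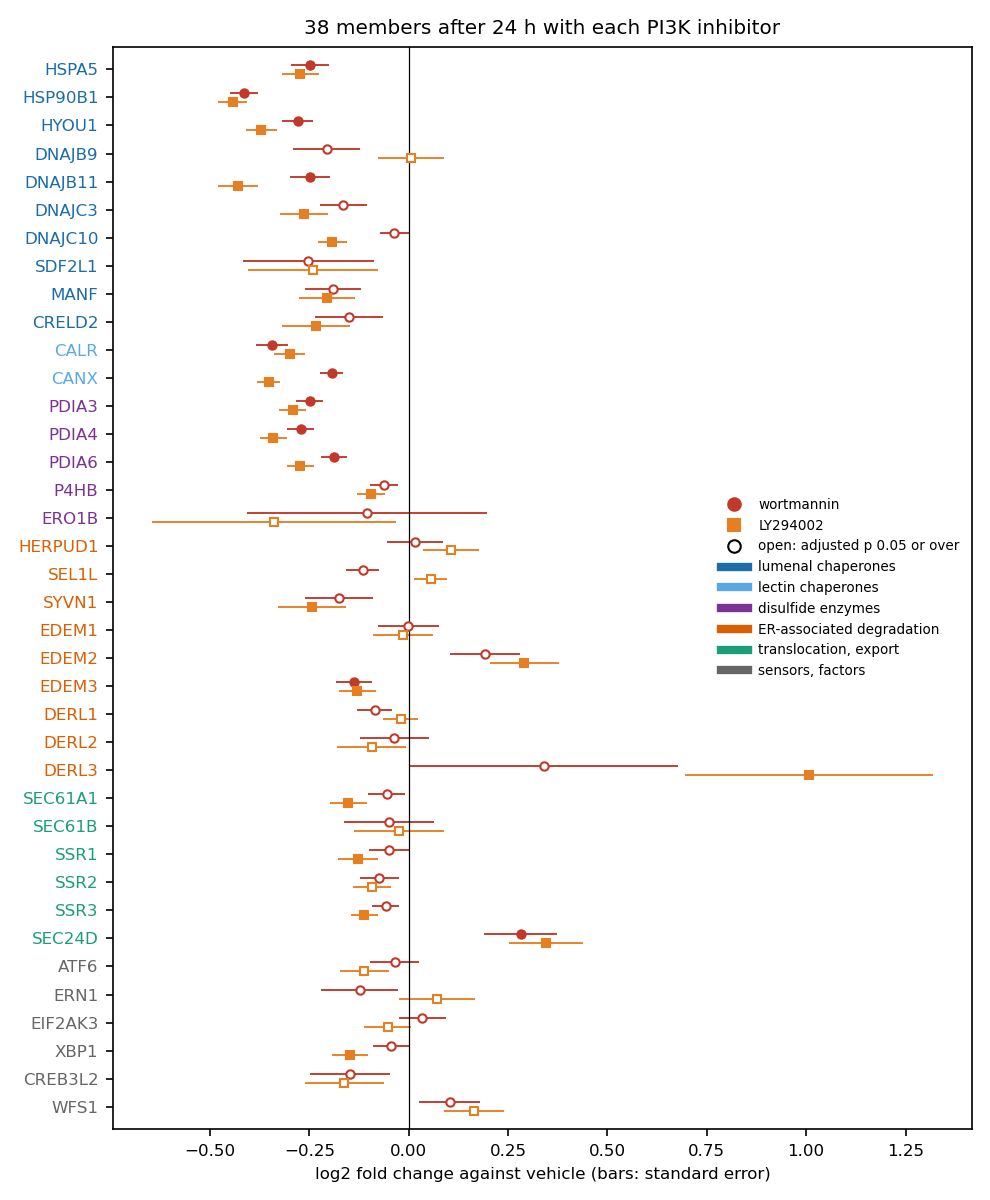
Log2 fold change against vehicle with its SE for each of the 38 members under wortmannin and LY294002, ordered by role. Filled symbols are called (adjusted p under 0.05), 11 with wortmannin and 23 with LY294002, and the chaperone and disulfide genes lie mostly below 0.

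The 2 inhibitors were compared directly, which does not use the vehicle libraries. Here 3 of 38 members were higher with wortmannin (7.89%) against 12.7% of all genes, and 1 was lower (2.63%) against 9.49%. CANX was higher with wortmannin by 0.16 ± 0.03 (adjusted p = 2.81e-05), DNAJB11 by 0.18 ± 0.05 (adjusted p = 0.00701) and DNAJC10 by 0.16 ± 0.04 (adjusted p = 0.00106). SEL1L, the adaptor of the SYVN1 ligase, was lower by 0.17 ± 0.04 (adjusted p = 0.00181). It stood at 58.7, 55.4 and 58.3 CPM with wortmannin, 66.0, 65.9 and 62.2 CPM with LY294002 and 60.9, 64.2 and 61.7 CPM in vehicle. HSPA5 and HSP90B1 were not called between the inhibitors. In an edgeR fit to the 6 inhibitor libraries alone, 0 members passed the test. There 6 had an unadjusted p under 0.05, as had 3911 of all 15279 genes in that fit. DESeq2 called 6 members, beside 2154 genes higher and 1406 lower of all 16767. Without the second LY294002 library edgeR called 7, and the share of all genes in that fit is not given here.

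Each extract at 500 µg/mL was compared with vehicle, which lies in another code set, so extract and set cannot be told apart here. With Poria, 4 of 10 lumenal chaperones, 1 of 2 lectin chaperones and 3 of 5 disulfide genes rose. With Glycyrrhizae, 6, 2 and 3 of them rose. No member passed the test with the 4 other extracts, and a difference between extracts was tested only for the dose effects, where no member was called. With Poria at 500 µg/mL, 9 members rose (23.7%) against 4.6% of all genes, and none fell against 2.89%. With Glycyrrhizae at 500 µg/mL, 12 rose (31.6%) against 3.65%, and none fell against 3.26%. The median member change was 0.06 with Poria and 0.09 with Glycyrrhizae, against -0.0093 and -0.0045 for all genes. By DESeq2 the counts were 9 and 14. Over all genes DESeq2 called 934 higher and 453 lower with Poria, and 694 and 530 with Glycyrrhizae. With upper-quartile factors the all-gene balance turned from 771 higher and 485 lower to 459 and 722 with Poria, and from 612 and 546 to 455 and 714 with Glycyrrhizae, while 4 and 12 members rose and none fell.

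HSP90B1 stood at 785, 811 and 810.3 CPM with Poria at 500 µg/mL and at 896, 839 and 889.9 CPM with Glycyrrhizae at 500 µg/mL. All 6 libraries lay above the vehicle range of 715 to 725 CPM. The change was 0.16 ± 0.04 (adjusted p = 0.003) with Poria and 0.28 ± 0.04 (adjusted p = 3.22e-07) with Glycyrrhizae.

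HSPA5 stood at 512, 485 and 479 CPM with Poria and 541, 487 and 501 CPM with Glycyrrhizae, again above all vehicle libraries. Its change was 0.21 ± 0.05 (adjusted p = 0.00248) and 0.26 ± 0.05 (adjusted p = 0.000188). MANF had the largest called change, 0.22 ± 0.07 with Poria (adjusted p = 0.0355) and 0.34 ± 0.07 with Glycyrrhizae (adjusted p = 0.00108). It stood at 38.2, 38.6 and 36.8 CPM in vehicle, 45.7, 44.1 and 42.8 CPM with Poria and 48.9, 46.6 and 47.7 CPM with Glycyrrhizae.

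Also called with Poria were DNAJC10 (0.17 ± 0.04, adjusted p = 0.00137), SSR3 (0.14 ± 0.03, adjusted p = 0.00615), PDIA4 and PDIA6 (both 0.12), P4HB (0.11) and CANX (0.09). DNAJC10 stood at 181, 183 and 196 CPM against 169, 170.5 and 157 CPM in vehicle. SSR3 stood at 206, 199.8 and 206 CPM against 193, 179.8 and 182 CPM, and PDIA4 at 429, 439 and 435 CPM against 407, 399.9 and 389.6 CPM. The treated libraries of these 3 genes lay above all vehicle libraries. The Poria calls were not kept in a fit without the other groups. Such a fit changes the spread estimate, the filter, the scaling and the genes adjusted over, and which of these mattered was not tested. In an edgeR fit to the Poria and vehicle libraries alone 0 members passed the test (smallest adjusted p = 0.0644), HSPA5 and HSP90B1 included (0.0652 and 0.0938). There 11 had an unadjusted p under 0.05, as had 2806 of all 14858 genes in that fit. In the 6 fits with 1 library left out, HSPA5, HSP90B1 and DNAJC10 kept the call. MANF lost it in 5 (0.20 to 0.24, adjusted p = 0.0634 to 0.151), CANX in 6, P4HB in 4, PDIA4 and PDIA6 in 3 each and SSR3 in 1. The count was lowest, at 4, without the second or without the third vehicle library, and 5 without the first or without the second Poria library.

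CANX, DNAJB11, CALR, PDIA4, PDIA3, PDIA6, SSR3, DNAJC10 and HYOU1 were also called higher with Glycyrrhizae, with changes of 0.14 to 0.18. CANX stood at 994, 954 and 1010.3 CPM (0.18 ± 0.03, adjusted p = 2.41e-05). DNAJB11 stood at 99.2, 94.3 and 94.4 CPM (0.18 ± 0.05, adjusted p = 0.0174), and CALR at 700.4, 683 and 720.5 CPM (0.18 ± 0.04, adjusted p = 0.00198). PDIA3 stood at 886, 834 and 874 CPM (0.18, adjusted p = 0.000518). None of these libraries fell within the vehicle range. With 1 library left out, HYOU1 lost its call in 3 of 6 fits, DNAJB11 in 2 and DNAJC10 in 1. By role, 6 of 10 lumenal chaperones, both lectin chaperones, 3 of 5 disulfide genes and 1 of 6 translocation and export genes were called, and none of 9 ERAD genes or 6 sensors and transcription factors. These counts by role were not matched for expression level.

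SEC24D, the member that rose with the inhibitors, was below all vehicle libraries with both extracts, at 39.2, 38.6 and 40.5 CPM with Poria and 40.4, 37.8 and 39.3 CPM with Glycyrrhizae. Its change of -0.24 in each did not pass the test (adjusted p = 0.12 and 0.11). Without the filter on low counts it did (adjusted p = 0.0155 and 0.0115).

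**Figure D4:**
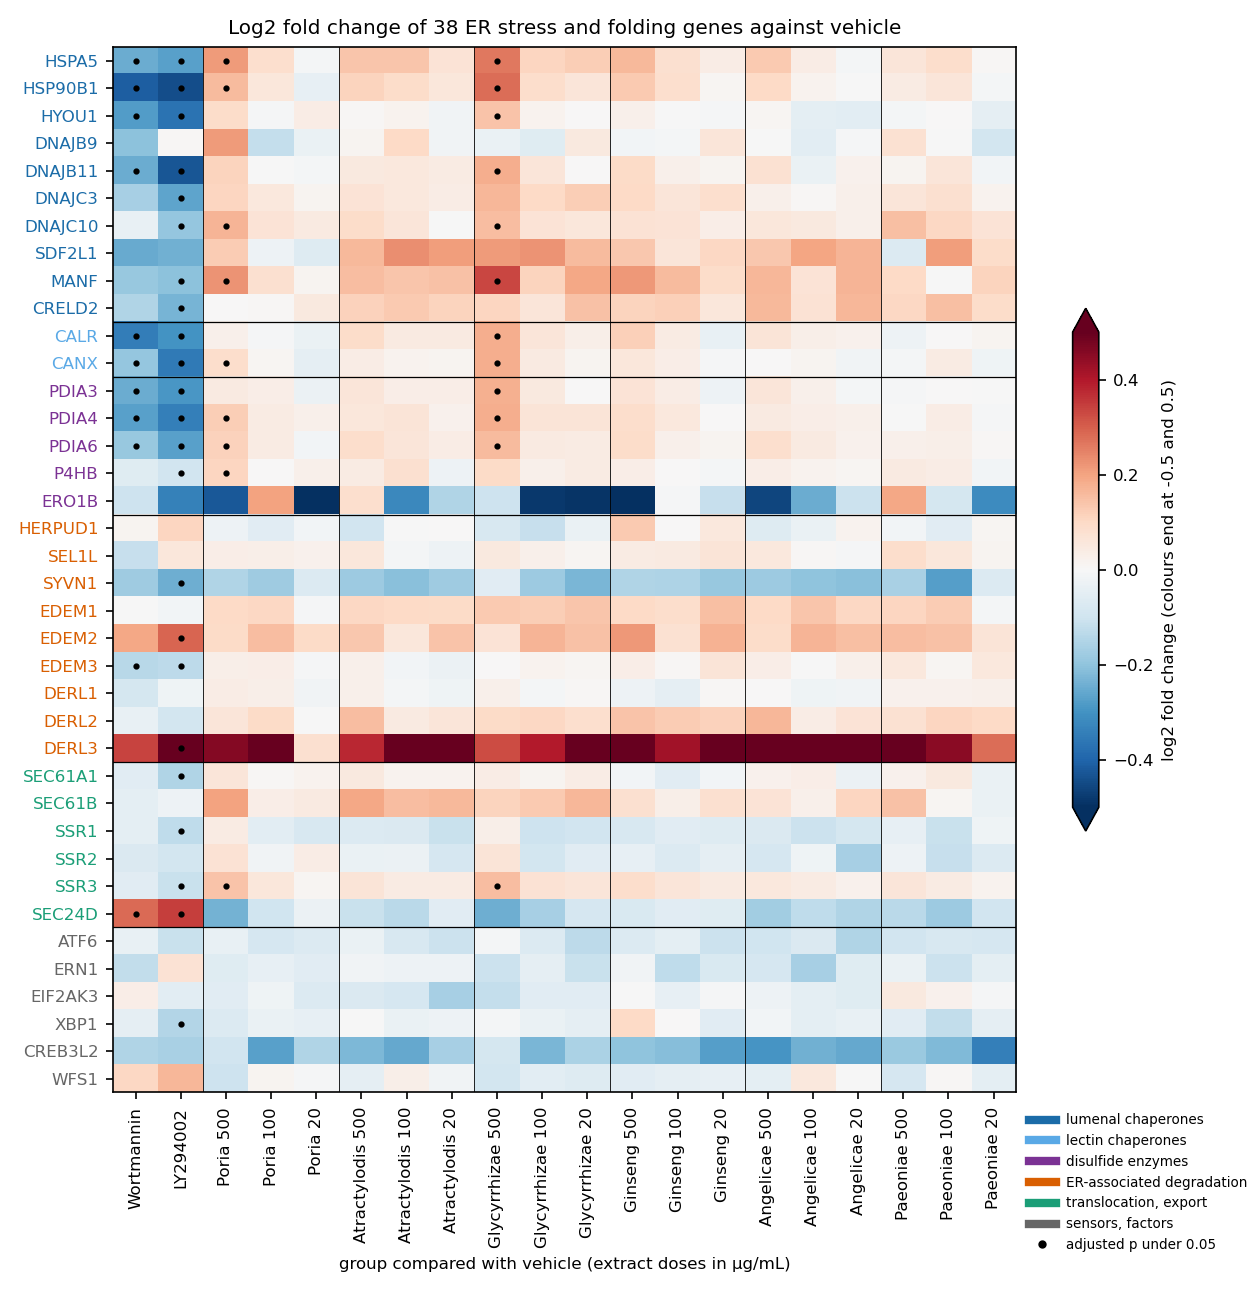
Log2 fold change against vehicle for 38 members (rows, by role) in the 20 treated groups (columns), with colours ending at 0.5 in either direction and a dot where the adjusted p was under 0.05. Dots occur in the columns of the 2 inhibitors and of Poria and Glycyrrhizae at 500 µg/mL, 11, 23, 9 and 12 of them.

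With the other extracts at 500 µg/mL, no member was called against 0.25% of all genes for Atractylodis, 0.352% for Ginseng, 0.161% for Angelicae and 0.161% for Paeoniae. At an unadjusted p under 0.05 there were 8, 10, 6 and 1 members by edgeR. Of all 16767 genes, 2473, 2622, 2683 and 1893 had such a p. DESeq2 called HSP90B1 with Atractylodis, HSP90B1 and HSPA5 with Ginseng, none with Angelicae, and DNAJC10 with Paeoniae. Over all genes it called 73 higher and 40 lower, 105 and 122, 146 and 109, and 34 and 39 in the same order. HSP90B1 stood at 806, 797 and 763 CPM with Ginseng (0.13 ± 0.04, adjusted p = 0.0697), and at 783, 784 and 767 CPM with Atractylodis (0.11, adjusted p = 0.15). With Angelicae it stood at 764, 794 and 754 CPM (0.10, adjusted p = 0.16), and with Paeoniae at 737 and 744 CPM (0.04, adjusted p = 0.72). These values all lay above the vehicle range, and the changes did not pass edgeR's test. For HSPA5 the changes were 0.16 with Ginseng, 0.14 with Atractylodis, 0.13 with Angelicae and 0.06 with Paeoniae (adjusted p = 0.0876 to 0.70). In edgeR with the replicate block HSPA5 was called with Ginseng (adjusted p = 0.00637), Atractylodis (0.0303) and Angelicae (0.0309). With Ginseng it was also called with library totals (0.0357) and without the filter (0.0339).

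At 100 µg/mL no member was called, against 0.0417% of all genes for Poria, 0.364% for Atractylodis, 0.34% for Glycyrrhizae, 0% for Ginseng, 0.00596% for Angelicae and 0.0477% for Paeoniae. Unadjusted p was under 0.05 for 3, 6, 6, 3, 3 and 4 members in the same order, and DESeq2 called none. Of all 16767 genes, 1376, 2324, 2586, 1773, 2036 and 2300 had such a p. At 20 µg/mL no member was called, against 0% of all genes for Poria, 0.137% for Atractylodis, 0.37% for Glycyrrhizae, 0% for Ginseng, 0.173% for Angelicae and 0% for Paeoniae. Here 0, 4, 5, 2, 7 and 1 members had an unadjusted p under 0.05, and 834, 1989, 3049, 2567, 3067 and 1163 of all 16767 genes. DESeq2 called SSR2 with Angelicae, beside 170 genes higher and 273 lower of all 16767, and no other member. SSR2, of the translocon-associated complex, stood at 189.8, 193 and 190.1 CPM with Angelicae at 20 µg/mL and at 209, 219 and 216 CPM in vehicle (-0.17, adjusted p = 0.0812 by edgeR).

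The dose contrast of 500 against 20 µg/mL stays within a code set and uses no vehicle library. With Poria, 6 members were higher at 500 µg/mL (15.8%) against 3.21% of all genes, and with Glycyrrhizae 8 (21.1%) against 1.83%. None was lower, against 2.3% and 2.02% of all genes. Over all genes the balance of 539 higher and 385 lower with Poria became 344 and 532 with upper-quartile factors and 343 and 464 with library totals, where 4 members were higher. With Glycyrrhizae 307 and 338 became 232 and 390 and 122 and 532, where 6 and 3 members were higher. CANX, HSP90B1 and PDIA6 were called in both, 3 of the 6 and 3 of the 8.

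With Poria, HSP90B1 rose from 711, 674 and 716 CPM at 20 µg/mL, through 751, 746 and 749 CPM at 100 µg/mL, to the 785 to 811 CPM given above (0.20 ± 0.04 for 500 against 20, adjusted p = 0.00023). The 3 doses did not overlap. HSPA5 moved from 442, 418 and 407 CPM through 481, 446 and 422 CPM to 512, 485 and 479 CPM (0.22 ± 0.05, adjusted p = 0.00186), with overlap between neighbouring doses and none between 500 and 20 µg/mL. CANX, PDIA6, SSR3 and DNAJC10 were each higher by 0.13 (adjusted p = 0.00218 to 0.0253), and with 1 library left out DNAJC10 and SSR3 lost the call in 3 of 6 fits each and PDIA6 in 2. CANX stood at 839.9, 828 and 859.7 CPM at 20 µg/mL and at 917, 918 and 935 CPM at 500 µg/mL.

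With Glycyrrhizae, HSP90B1 stood at 783, 763 and 706 CPM at 20 µg/mL, 769, 759 and 766 CPM at 100 µg/mL and 839 to 896 CPM at 500 µg/mL (0.22 ± 0.04 for 500 against 20, adjusted p = 6.91e-05). The lower doses overlapped each other and lay below the highest dose. PDIA3, DNAJB11, CANX, CALR, HYOU1, PDIA4 and PDIA6 were higher by 0.12 to 0.18. CANX stood at 906, 870.0 and 853 CPM at 20 µg/mL (0.17, adjusted p = 0.000139), and PDIA3 at 798, 763 and 736 CPM (0.18, adjusted p = 0.00144). HSPA5 was not called (0.14, adjusted p = 0.0903), its libraries at 20 µg/mL, 498, 453 and 438 CPM, overlapping those at 500 µg/mL. In edgeR fits to the libraries of the 2 doses alone, 0 members passed the test for Poria and 1 for Glycyrrhizae. Unadjusted p was under 0.05 for 12 and 16 members, and for 2384 of 14907 and 2680 of 15001 genes in these fits. DESeq2 called 8 and 9 members, and over all genes 673 higher and 365 lower with Poria and 408 and 345 with Glycyrrhizae. The Glycyrrhizae count fell to 3, with CALR, DNAJB11, HYOU1, PDIA4 and PDIA6 lost, without the first or the third library at 500 µg/mL, or without the second or the third at 20 µg/mL.

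**Figure D5:**
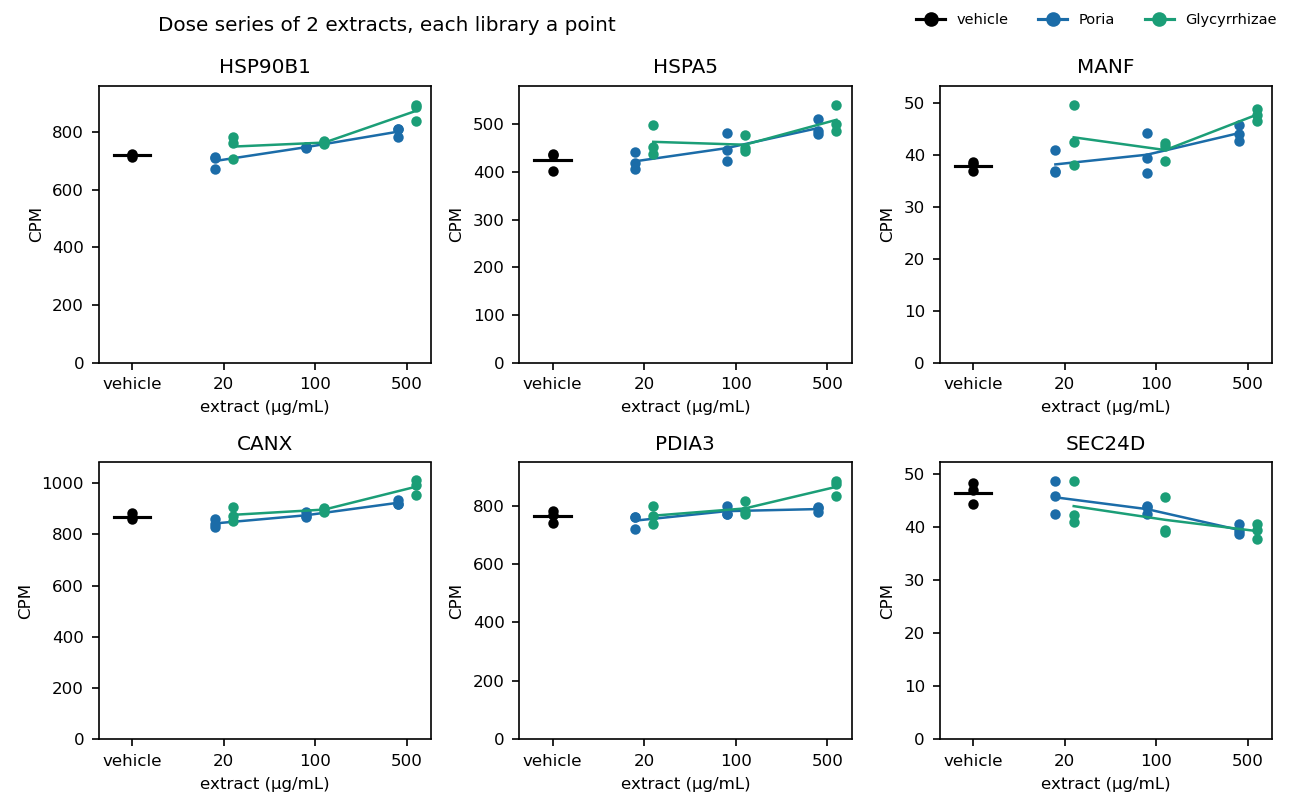
Level in CPM of HSP90B1, HSPA5, MANF, CANX, PDIA3 and SEC24D in vehicle and at 20, 100 and 500 µg/mL of Poria and Glycyrrhizae, 1 point per library with a line through the group means. HSP90B1 at 500 µg/mL lies above all vehicle libraries with both extracts, and SEC24D lies below them.

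For the other extracts, no member was called between 500 and 20 µg/mL, against 0% of all genes for Atractylodis, 0% for Ginseng, 0.0179% for Angelicae and 0.0358% for Paeoniae. Unadjusted p was under 0.05 for 1, 8, 3 and 0 members, and DESeq2 called none. Of all 16767 genes, 857, 672, 499 and 564 had such a p. Whether an extract's dose effect differed from that of the other extract in its code set was tested directly. No member was called for Poria against Atractylodis (0.394% of all genes), Glycyrrhizae against Ginseng (0.0477%) or Angelicae against Paeoniae (0%), and none by DESeq2. Unadjusted p was under 0.05 for 5, 3 and 0 members, and for 1356, 1047 and 410 of all 16767 genes. For HSP90B1 the dose effect was larger with Poria than with Atractylodis by 0.14 ± 0.05 (adjusted p = 0.33), and larger with Glycyrrhizae than with Ginseng by 0.10 (adjusted p = 0.80). The difference in dose effect between extracts was thus not detectable for any member in these libraries.

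SDF2L1, DNAJB9 and HERPUD1 were called in no comparison, and XBP1 was called with LY294002 alone. SDF2L1, a BiP partner induced by ER stress, stood at 7.43, 9.29 and 7.12 CPM in vehicle, 6.94, 6.64 and 6.43 CPM with wortmannin, 6.22, 5.66 and 8.33 CPM with LY294002 and 10.4, 8.69 and 8.47 CPM with Glycyrrhizae at 500 µg/mL. Its changes were -0.25 ± 0.16, -0.24 ± 0.16 and 0.21 ± 0.16, and none passed the test (adjusted p = 0.254 to 0.485).

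DNAJB9, a BiP cochaperone that restrains IRE1, stood at 13.8, 12.4 and 11.0 CPM in vehicle and 11.1, 10.3 and 10.9 CPM with wortmannin (-0.21 ± 0.09, adjusted p = 0.10). With Poria at 500 µg/mL it stood at 15.6, 13.9 and 13.6 CPM (0.21 ± 0.08, adjusted p = 0.10), and with Glycyrrhizae at 12.7, 11.1 and 12.6 CPM (-0.03). The Poria libraries at 500 µg/mL lay above those at 20 µg/mL, which were 13.0, 12.1 and 11.3 CPM (0.25 ± 0.08, adjusted p = 0.0637).

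HERPUD1, an ERAD scaffold induced by ER stress, stood at 41.1, 40.5 and 36.3 CPM in vehicle, 39.6, 44.2 and 35.1 CPM with wortmannin and 42.3, 40.7 and 44.0 CPM with LY294002. The groups overlapped, and neither change passed the test (0.02, adjusted p = 0.93, and 0.11, adjusted p = 0.24). HERPUD1 also overlapped vehicle with Poria and Glycyrrhizae at 500 µg/mL, with changes of -0.03 and -0.08.

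XBP1, the transcription factor spliced by IRE1, was measured as total gene counts, which do not separate the spliced form. It stood at 207, 220.2 and 214 CPM in vehicle, 199.7, 209 and 214 CPM with wortmannin (-0.04, adjusted p = 0.60) and 193, 205 and 181 CPM with LY294002. The LY294002 libraries lay below vehicle (-0.15 ± 0.05, adjusted p = 0.0077). Without the third of them the change was -0.10 (adjusted p = 0.098). With Poria and Glycyrrhizae at 500 µg/mL, XBP1 was at 203, 207 and 201 CPM and at 217, 205 and 215 CPM, changes of -0.07 and -0.01 that did not pass the test.

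The 3 sensors were not called in any comparison. ATF6 stood at 61.0, 68.6 and 69.2 CPM in vehicle, with changes of -0.04 with wortmannin and -0.11 with LY294002. ERN1 stood at 16.5, 14.6 and 17.7 CPM (-0.12 and 0.07), and EIF2AK3 at 23.9, 24.9 and 23.3 CPM (0.03 and -0.05). Their changes with the 6 extracts at 500 µg/mL lay between -0.12 and 0.05. CREB3L2, a membrane-bound transcription factor, had its highest group mean in vehicle, at 23.2, 22.7 and 22.1 CPM. Its lowest adjusted p among the 500 µg/mL groups was 0.14 (Angelicae, -0.30 ± 0.10). WFS1, an ER membrane protein, stood at 50.9, 48.2 and 56.5 CPM in vehicle and 57.7, 54.5 and 62.1 CPM with LY294002 (0.16, adjusted p = 0.080), and it passed the test with upper-quartile factors (adjusted p = 0.0284), library totals (0.0291) and the replicate block (0.0132).

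Members differed in how their group means followed the mean log2 profile of the lumenal chaperones over the 21 groups, which share the libraries and their depths. Pearson's r was 0.98 for PDIA6 and PDIA4, 0.96 for PDIA3 and CANX and 0.93 for SSR3. It was 0.45 for XBP1, 0.47 for DNAJB9, -0.45 for HERPUD1, -0.86 for WFS1 and -0.95 for SEC24D. Among genes that are no members, the profile was followed most closely by the proteasome subunit PSMA4 (0.98), HMGB1, PSMC3, PRPS1, HMGB2, CCNC, CDCA3, SNRPA1, PSMD14 and LBR (0.97). These values are descriptions over groups and have no test.

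The members with an ERSE or ERSE-II in the promoter windows were set beside those without. Of the 11 with a match, 6 fell with wortmannin and 8 with LY294002, with median changes of -0.19 and -0.27, where 7.46% and 20.5% of all genes fell. Of the 23 with a promoter and no match, 3 fell with wortmannin, and 11 fell and 1 rose with LY294002, with medians of -0.06 and -0.11. With Poria and Glycyrrhizae at 500 µg/mL, 4 and 6 of the 11 rose (medians 0.09 and 0.16), and 5 and 5 of the 23 (medians 0.07 and 0.07), against 4.6% and 3.65% of all genes. In the dose contrast 4 and 5 of the 11 were higher, against 2 and 2 of the 23, and 3.21% and 1.83% of all genes. These splits have no test, and the sets and the shares of all genes were not matched for expression level. HERPUD1, SDF2L1 and ERO1B, each with a match printed or named above, were not called in any of these comparisons. In the rest of the genome, 33 further genes had a match, of which 19 were tested. Of these 19, 1 rose and 1 fell with wortmannin, 3 rose and 4 fell with LY294002, and 1 rose with each of the 2 extracts.

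Other genes of the same pathway or related to it were read from 5 lists. Of all genes, 6.26% rose and 7.46% fell with wortmannin, and 18.7% rose and 20.5% fell with LY294002. At 500 µg/mL, 4.6% rose and 2.89% fell with Poria, and 3.65% rose and 3.26% fell with Glycyrrhizae. Counts given below for a list stand beside these shares. The PERK branch was represented by 13 genes driven by or acting around ATF4. With wortmannin 4 fell (30.8%) and none rose, and with LY294002 6 fell (46.2%) and none rose. ATF4, the transcription factor of this branch, stood at 253, 257 and 259 CPM in vehicle, 204, 209 and 207 CPM with wortmannin and 187, 191 and 192 CPM with LY294002. The groups did not overlap, and the changes were -0.31 ± 0.04 (adjusted p = 3.19e-08) and -0.43 ± 0.04 (adjusted p = 5.04e-13). TRIB3, a pseudokinase induced by ATF4, fell by 0.25 and 0.47, and PPP1R15B, a cofactor that dephosphorylates eIF2 alpha, by 0.24 and 0.31.

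With Poria at 500 µg/mL, 5 of the 13 rose (38.5%). TRIB3 stood at 41.9, 38.5 and 37.3 CPM against 30.1, 31.8 and 29.6 CPM in vehicle (0.37 ± 0.08, adjusted p = 0.00107), and ATF3 at 3.16, 2.89 and 3.35 CPM against 1.96, 1.60 and 1.90 CPM (0.78 ± 0.22, adjusted p = 0.0214), a call lost in 4 of 6 fits with 1 library left out (adjusted p = 0.0618 to 0.102). CEBPG (0.22) and EIF2S1, which encodes eIF2 alpha (0.20), also rose. Of these, TRIB3 (0.30), EIF2S1 (0.22) and CEBPG (0.18) were also higher at 500 than at 20 µg/mL. With Glycyrrhizae at 500 µg/mL, CEBPG (0.18), EIF2S1 (0.16) and PPP1R15B (0.12) rose against vehicle, and none of the 13 was called between 500 and 20 µg/mL.

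With Ginseng at 500 µg/mL, CHAC1 and DDIT4 were called higher (1.23 ± 0.30 and 0.72 ± 0.18, both adjusted p = 0.0497). CHAC1, which degrades glutathione, stood at 12.8, 3.08 and 2.92 CPM, and DDIT4, an inhibitor of mTORC1, at 36.2, 13.4 and 17.1 CPM. Without the first Ginseng library the changes were 0.16 for CHAC1 (adjusted p = 0.749) and 0.17 for DDIT4 (adjusted p = 0.494). In the same library HERPUD1 was at 48.5 CPM and XBP1 at 249.9 CPM, each above the other 2 libraries of its group, whereas HSPA5 at 471 CPM was not.

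Of 24 other folding genes, 3 rose (12.5%) and 2 fell (8.33%) with wortmannin, and 5 rose (20.8%) and 8 fell (33.3%) with LY294002. With Poria and with Glycyrrhizae at 500 µg/mL, 4 rose (16.7%) and none fell. The 4 with Poria were TXNDC5, PPIB, PRDX4 and GRPEL1, the last of which encodes a mitochondrial protein and not one of the ER. The rises with LY294002 and the falls with wortmannin were near the shares of all genes. The peroxiredoxin PRDX4 stood at 27.6, 27.3 and 27.1 CPM with Poria and 27.8, 27.9 and 24.8 CPM with Glycyrrhizae, against 24.2, 22.8 and 20.8 CPM in vehicle (0.27 and 0.25). It was also called higher with Ginseng at 500 µg/mL (0.34, adjusted p = 0.026) and Atractylodis at 100 µg/mL (0.34, adjusted p = 0.0155), and none of these 4 calls held without the third vehicle library (0.19 to 0.28, adjusted p = 0.136 to 0.275). The collagen prolyl hydroxylase P4HA2 rose with both inhibitors (0.39 and 0.74), while UGGT1, which re-glucosylates unfolded glycoproteins for calnexin, fell with both (-0.17 and -0.33).

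Of 23 other ERAD genes, 1 rose (4.35%) and 6 fell (26.1%) with wortmannin, and 6 rose (26.1%) and 8 fell (34.8%) with LY294002. The lectin OS9 rose with LY294002, to 137, 141 and 152 CPM from 112, 114 and 112 CPM (0.35 ± 0.03, adjusted p = 2.13e-11). The deubiquitinase YOD1 fell from 39.6, 38.3 and 36.2 CPM to 29.2, 26.6 and 26.8 CPM (-0.47 ± 0.06, adjusted p = 9.29e-09). SELENOK rose with Poria (0.36) and Glycyrrhizae (0.34) at 500 µg/mL, and neither call held without the third vehicle library (adjusted p = 0.115 and 0.172). YOD1 rose with Glycyrrhizae at 500 µg/mL (0.22, adjusted p = 0.0103), and no gene of this list was called lower with either extract. Of 43 other genes of translocation and ER-Golgi traffic, 1 rose (2.33%) and 5 fell (11.6%) with wortmannin, 8 rose (18.6%) and 14 fell (32.6%) with LY294002, and 6 rose (14.0%) and 1 fell (2.33%) with each of Poria and Glycyrrhizae. The oligosaccharyl transferase subunit STT3B rose with both extracts (0.19 and 0.16), and SEC31A, a coat subunit of vesicles leaving the ER, fell with both (-0.22 and -0.18). Without the third vehicle library the SEC31A changes were -0.16 and -0.12 (adjusted p = 0.125 and 0.33).

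Of 14 genes that process or modulate the sensors, EIF2AK2 (0.33) and CREB3L1 rose and TMBIM6 fell (-0.11) with wortmannin. With LY294002, BLOC1S1 (0.29), CREB3L1, MBTPS1 (0.24), CREB3L4 (0.22), CREB3 (0.19) and TMBIM6 (0.10) rose and EIF2AK2 fell (-0.17). CREB3L1, a membrane-bound relative of CREB3L2, was the one called with the extracts. It stood at 194, 204 and 223 CPM in vehicle and rose with wortmannin (0.24) and LY294002 (0.25). With Glycyrrhizae at 500 µg/mL it stood at 130.2, 135 and 136 CPM (-0.63 ± 0.06, adjusted p = 1.68e-10), below the 169.9, 165 and 164 CPM at 20 µg/mL (-0.32 for 500 against 20, adjusted p = 0.00058). With Poria it moved from 183, 198 and 194 CPM at 20 µg/mL to 133, 145 and 136 CPM at 500 µg/mL (-0.47, adjusted p = 1.88e-07), a change against vehicle of -0.58 at the highest dose. It was also called lower against vehicle with Glycyrrhizae at 100 and 20 µg/mL (both -0.31), Paeoniae (-0.33), Ginseng (-0.28) and Atractylodis (-0.24) at 500 µg/mL, and Atractylodis at 100 µg/mL (-0.24). These 6 calls did not hold without the third vehicle library (-0.27 to -0.18, adjusted p = 0.106 to 0.569). The Poria dose effect was more negative than that of Atractylodis, with a difference of -0.40 ± 0.08 (adjusted p = 0.00751), and with an adjusted p of 0.0528 without the second Atractylodis library at 500 µg/mL. It was the one called difference between dose effects among the members and the genes of the 5 lists.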

How the data were processed

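Messenger RNA of HT29 cells was sequenced as 100 bp pairs from MGI directional libraries, per the labels' protocols. The submitters' processing notes name FastQC 0.11.9, Trim Galore 0.6.5, STAR 2.7.3a, RSEM 1.3.3 and hg38. The authors deposited expected counts per Ensembl gene without normalisation, and 24.2% of the nonzero values were fractional. The sources used here name neither the annotation release nor the strand setting, so reads of a gene and of an antisense partner cannot be told apart. Of 273 columns, 213 were not used. Symbols and GENCODE 29 coordinates (GRCh38) were joined by Ensembl identifier, and 56558 identifiers matched.

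Expected counts were rounded. Genes were filtered in edgeR 4.0.16 (filterByExpr, at least 10 counts and 15 in total), which left 16767, and scaled by TMM. A single quasi-likelihood model of 21 group means was fitted to the 60 libraries in R 4.3.3, with 39 residual degrees of freedom and a biological coefficient of variation of 0.0570. Benjamini-Hochberg adjustment ran over all genes in each of 30 comparisons, and a gene was called at an adjusted p under 0.05. SEs follow from the F statistic. The test was run first on simulated data. Alternatives were DESeq2 1.42.0, other scalings, no filter, a fit to the groups compared, a replicate block and each library left out.

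The members and lists were chosen with earlier results of these data known. Values are given for HSPA5, HSP90B1, SDF2L1, HERPUD1, DNAJB9 and XBP1, for up to 6 called members with the largest change in a comparison, and for up to 4 called genes of each other list. Further members named with values were chosen after these were seen. Genes similar in profile were ranked among those of at least 5 CPM.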

Additional observations from a re-analysis of the deposited data

Results flagged for a closer look

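ERO1B, an ER oxidase, moved in opposite directions with dose in the 2 extracts of 1 code set. All libraries of Glycyrrhizae at 500 µg/mL (0.562, 0.666 and 0.513 CPM) lay above those at 20 µg/mL (0.490, 0.399 and 0.441 CPM), with a log2 change of 0.39. All libraries of Ginseng at 500 µg/mL (0.402, 0.527 and 0.292 CPM) lay below those at 20 µg/mL (0.556, 0.563 and 0.609 CPM), with a log2 change of -0.51. Neither change was called, and the test of their difference did not pass the threshold (0.89 on the log2 scale). The gene was at about 0.5 CPM in these libraries, so the values rest on few reads.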

How the results depend on the processing

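The 73 called changes of single members were recomputed under the alternatives that apply to each. Of the 949 combinations of a call and a setting, 768 kept the call, 181 lost it and none changed its direction. DESeq2, DESeq2-style size factors (RLE) and the replicate block kept all 73. A fit to the groups compared, which has few residual degrees of freedom, lost 40, no filter on low counts 23, upper-quartile factors 18 and library totals 15. Of 185 calls in the other lists, none changed direction in 2406 such combinations, and 539 of these lost the call.

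Counts of called members that moved by over 1.5 times were as follows. With the groups compared alone, LY294002 had 14, wortmannin against LY294002 0, Poria at 500 µg/mL 0, Angelicae at 20 µg/mL 1, the Poria dose contrast 0 and that of Glycyrrhizae 1. With upper-quartile factors, Poria at 500 µg/mL had 4. With library totals, Atractylodis at 500 µg/mL had 1, Ginseng at 500 µg/mL 3 and the Glycyrrhizae dose contrast 3. With DESeq2, Atractylodis at 500 µg/mL had 1, Ginseng 2, Paeoniae 1 and Angelicae at 20 µg/mL 1. Without the filter, Ginseng at 500 µg/mL had 2, the dose contrasts of Poria and Glycyrrhizae 3 each, Angelicae at 20 µg/mL 2, and 1 each for Angelicae at 500 and 100 µg/mL, Atractylodis and Paeoniae at 100 µg/mL, and Glycyrrhizae, Ginseng and Paeoniae at 20 µg/mL. With the replicate block, wortmannin against LY294002 had 8, Ginseng and Angelicae at 500 µg/mL 2 each, and Atractylodis at 500 and 100 µg/mL and Glycyrrhizae, Angelicae and Paeoniae at 20 µg/mL 1 each. All-gene counts moved between settings too. With Angelicae at 20 µg/mL, 14 genes were higher and 15 lower of 16767 in the main fit. They were 639 and 502 of 34237 without the filter, 170 and 273 with DESeq2 and 108 and 126 with the replicate block. Residuals of same-numbered libraries correlated by -0.163 to 0.133, and in no comparison did all pairs exceed 0.1, the rule set for pairing. Whether same-numbered libraries shared a culture or a day is not stated, and so few correlations cannot decide it. The cause of these moves was not tested.

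With 1 library left out, counts ranged from 9 to 12 for wortmannin, 17 to 25 for LY294002, 4 to 7 between the inhibitors, 4 to 8 for Poria at 500 µg/mL, 10 to 12 for Glycyrrhizae at 500 µg/mL, 4 to 6 for the Poria dose contrast and 3 to 10 for that of Glycyrrhizae, and stayed at 0 in the other comparisons. No call of HSP90B1 or HSPA5 was lost by leaving out 1 library. With 2 or 3 libraries in a group, changes of 0.1 to 0.2 on the log2 scale lie near the limit of what these data show, and ERO1B and DERL3 rest on few reads.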
